A study of Mus musculus with 12 samples.

Results

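The integrated stress response genes described here were the heme-regulated kinase Eif2ak1, the transcription factor Atf4, the ATF4-linked genes Ddit3, Trib3, Asns, Chac1, Sesn2 and Ddit4, and the phosphatase subunits Ppp1r15a and Ppp1r15b. These 10 genes were taken by symbol from 30743 genes named on the array, and all 10 passed the filter that left 20134 genes for testing. The cells were splenic erythroblasts of male mice, sorted 3 days after phenylhydrazine. This drug lyses red cells, so every group was under anaemic stress, and no group without the drug is analysed here. For 3 months before it the diet had been either adequate or deficient in selenium. Proerythroblasts, the earlier stage, and basophilic erythroblasts, the next stage, were measured on each diet with 3 arrays per group, 12 arrays in all. The labels give no strain and no age, and do not say whether the arrays of a group came from separate animals or pools, so the p-values measure only the spread between these arrays. Values are the deposited log2 expression values, on which a difference of 1 is a change of 2-fold, and the number of arrays limits their precision.

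In the integrated stress response, stress-sensing kinases phosphorylate the alpha subunit of the initiation factor eIF2, which lowers protein synthesis in general and favours translation of the Atf4 message. HRI, the kinase encoded by Eif2ak1, is held inactive by heme and in red cell precursors matches globin synthesis to the supply of heme. ATF4 protein then drives genes of amino acid supply and of stress, and a phosphatase subunit encoded by Ppp1r15a brings the phosphatase back to eIF2 and ends the response. The arrays measure RNA, so neither the phosphorylation of eIF2 nor the amount of ATF4 protein was measured.

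Some arrays stood apart or went against a label. Replicate 2 of both basophilic groups had a higher background (a median of 4.19 on the adequate and 4.70 on the deficient diet, against 3.63 to 3.80 in the other basophilic and 3.31 to 3.53 in the proerythroblast arrays), and member results that changed their call or moved by over 1.5 times without these arrays are given with and without them. For deficient basophilic replicate 3 the description field says proerythroblasts, while its title and cell type label name basophilic erythroblasts. Its value of the progenitor receptor Kit was 6.08, against 6.76 to 9.34 in the proerythroblast arrays, and it was kept as basophilic. The erythroid markers were high in every group, with an array mean over the 10 of 12 markers measured of at least 10.23. The array means over the 6 measured progenitor markers, Kit and Myb among them, ran from 7.74 to 7.88 in adequate and from 6.68 to 6.85 in deficient proerythroblasts. Neutrophil markers averaged 6.98 to 8.36 in adequate and 7.33 to 8.12 in deficient proerythroblasts and 6.0 to 6.82 in the basophilic arrays, and macrophage markers 5.54 to 6.71 over all arrays. B cell markers averaged 7.08 to 8.36, 7.21 to 7.81 and 6.79 to 7.46 in the same order, and T and NK cell markers 5.64 to 6.7 over all arrays. Adequate proerythroblast replicate 3 was the highest of its group for every measured marker of these lists. Its Cd22 was 8.58, against 7.19 and 7.36, and its Cd3e 7.23, against 5.9 and 5.99. It also had the lowest Eif2ak1 (9.88) and Ppp1r15a (8.95) of its group. The part of these marker differences in the results below was not tested. In sorted bulk samples, fewer cells of a type and less RNA per cell cannot be told apart.

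The promoters that hold a motif of this pathway are shown because 4 of the members carry one within 250 bases before or 50 bases after the start of the gene. Sequences are from RefSeq (GRCm38.p6), which held a promoter of 9 of the 10 members, from 250 bases before to 50 bases after the start. They are printed 5′ to 3′ in the direction of the gene, in lower case, with the motif match in capitals.
Asns promoter, chr6:7693210-7693459, minus strand, 250 bases before the start: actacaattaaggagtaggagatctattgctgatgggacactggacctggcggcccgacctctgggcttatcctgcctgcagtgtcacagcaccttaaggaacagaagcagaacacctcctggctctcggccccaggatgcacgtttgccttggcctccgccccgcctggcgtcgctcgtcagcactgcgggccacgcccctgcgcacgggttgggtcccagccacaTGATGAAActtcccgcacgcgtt
Chac1 promoter, chr2:119350992-119351241, plus strand, 250 bases before the start: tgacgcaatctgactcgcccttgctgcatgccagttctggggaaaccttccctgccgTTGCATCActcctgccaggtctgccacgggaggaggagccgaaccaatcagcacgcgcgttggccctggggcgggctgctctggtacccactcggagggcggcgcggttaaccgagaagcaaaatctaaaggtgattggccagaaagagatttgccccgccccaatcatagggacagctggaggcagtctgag
Trib3 promoter, chr2:152344028-152344057, minus strand, 30 bases after the start: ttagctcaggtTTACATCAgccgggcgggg
Ppp1r15a promoter, chr7:45526269-45526518, minus strand, 250 bases before the start: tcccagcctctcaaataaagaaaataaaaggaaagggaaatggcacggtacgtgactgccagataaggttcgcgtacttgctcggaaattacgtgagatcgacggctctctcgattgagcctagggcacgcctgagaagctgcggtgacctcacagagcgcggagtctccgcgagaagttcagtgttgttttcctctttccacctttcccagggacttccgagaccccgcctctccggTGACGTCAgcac

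TGATGNAA, the core of the element bound by pairs of C/EBP and ATF factors, was searched on both strands and was found in 3 of 9 members. Its first base lay 23 bases before the start in Asns and 193 before it in Chac1, and 14 bases after it in Trib3, and in Chac1 and Trib3 the match was on the opposite strand. Over all 32851 RefSeq promoters of the same length, 3.97% held it. TGACGTCA, the cyclic AMP response element, was found in 1 of 9 members, 12 bases before the start of Ppp1r15a, and in 1.79% of all promoters. The motifs do not overlap each other. A match describes these letters and shows no binding.

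In proerythroblasts the deficient diet was set against the adequate one. Ppp1r15a and Eif2ak1, which stand at the end and at the start of the response, rose by 1.48 (SE 0.16, adjusted p = 0.00071) and 0.89 (SE 0.13, adjusted p = 0.00348) on the log2 scale, which are 2.80-fold and 1.85-fold. The other 8 members did not pass the threshold, an adjusted p of 0.05 by limma with Benjamini-Hochberg adjustment over all genes tested. Among all genes 4.02% passed, 1.26% of them higher and 2.76% lower as shares of the genes tested. The median difference was 0.27 over the members and 0.02 over all genes. In 6 members the 3 arrays of one diet lay wholly apart from those of the other, 5 of them higher and Asns lower on the deficient diet, and 31.1% of all genes had such separate arrays (15.4% higher and 15.6% lower). Erythroid markers moved with the diet in these cells (4 of 10 higher and none lower, with array means of 10.23 to 10.57 on the adequate and 10.89 to 11.1 on the deficient diet), as did progenitor markers (4 of 5 tested lower), and their part in the change of Ppp1r15a and Eif2ak1 was not tested.

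In basophilic erythroblasts none of the 10 members passed the threshold between diets, and 0.0199% of all genes did (limma, 4 genes). The arrays of the diets overlapped for every member, and were separate for 8.04% of all genes. At an unadjusted p under 0.05 there were 4 members, Ddit3, Asns, Chac1 and Ppp1r15b, each with a lower mean on the deficient diet. Of all 20134 genes tested, 1305 had an unadjusted p under 0.05 there. Without replicate 2 of both basophilic groups, which leaves 2 arrays on each diet and a spread estimated over all groups, Asns, Ddit3, Trib3 and Chac1 fell, and 2.1% of all genes passed (0.725% lower). The median over the members was -0.27 with all arrays and -0.60 without these arrays, and over all genes 0.04 and -0.01.

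**Figure D1:**
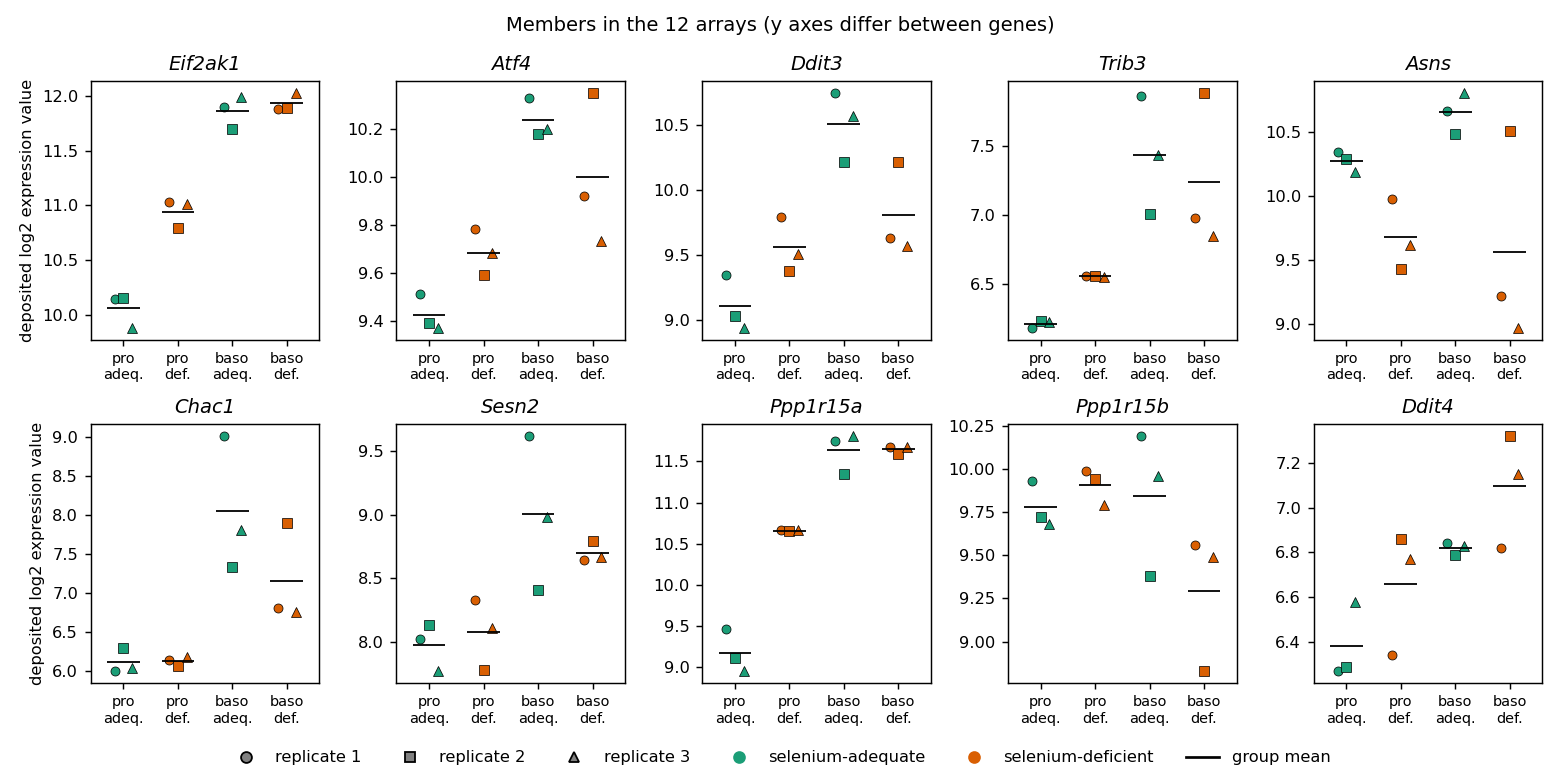
Deposited log2 expression value (vertical axis, a scale of its own for each gene) of the 10 members in the 12 arrays, by stage (pro, proerythroblasts, and baso, basophilic erythroblasts) and diet (adeq., adequate, and def., deficient), with marker shapes for the replicates and a line at the group mean. The square of deficient basophilic replicate 2 sits within or above the adequate basophilic arrays for Atf4, Ddit3, Trib3, Asns and Chac1, while the other deficient basophilic arrays sit below them.

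Eif2ak1 encodes HRI, the kinase that senses heme. Its log2 values were 10.14, 10.15 and 9.88 in replicates 1, 2 and 3 of adequate proerythroblasts and 11.03, 10.79 and 11.01 in deficient ones, and in basophilic erythroblasts 11.90, 11.70 and 11.99 on the adequate and 11.88, 11.89 and 12.03 on the deficient diet. Every deficient proerythroblast array was above every adequate one and below every basophilic array, and the basophilic groups overlapped. Between stages Eif2ak1 rose by 1.81 (SE 0.13, adjusted p = 2.7e-06) on the adequate and by 0.99 (SE 0.13, adjusted p = 0.000554) on the deficient diet. The diet difference in basophilic erythroblasts was 0.07 (SE 0.13, adjusted p = 0.954), and 0.01 (adjusted p = 0.994) without replicate 2 of both basophilic groups. The diet effect differed between the stages by -0.82 (SE 0.19), which did not pass (adjusted p = 0.105), and passed with the replicate number as a block within each stage (adjusted p = 0.0415) and without replicate 2 of both basophilic groups (adjusted p = 0.0253).

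The other kinases moved differently from Eif2ak1. Among the 6 tested genes of the eIF2 kinases and of the relay that carries mitochondrial stress to HRI, Eif2ak1 rose and Oma1, a protease of the inner mitochondrial membrane, fell by 0.94 (SE 0.15, adjusted p = 0.00498) on the deficient diet in proerythroblasts. In that comparison 1.26% of all genes rose and 2.76% fell. Eif2ak4 (GCN2), the sensor of uncharged tRNA, was 7.48 in adequate and 7.23 in deficient proerythroblasts on average (adjusted p = 0.721). Between stages on the adequate diet Eif2ak4 fell by 1.45 (SE 0.18, adjusted p = 8.01e-05) and Oma1 by 1.15 (SE 0.15, adjusted p = 0.000125). Of the 6 genes 1 rose and 2 fell there, where 54.2% of all genes passed (28.7% higher and 25.5% lower). For the deficient diet, where 56% of all genes passed (31.1% higher and 24.9% lower), Eif2ak1 rose while the other 5 genes of the list fell, among them Eif2ak4 by 1.09 (adjusted p = 0.00162), Eif2ak2 (PKR), the kinase that binds double-stranded RNA, by 0.84 (adjusted p = 0.012), and Eif2ak3 (PERK), the kinase of the endoplasmic reticulum, by 0.70 (adjusted p = 0.0244). The call of Eif2ak3 was kept in 9 of 12 fits that each left out 1 array (highest adjusted p 0.0774). Between diets in basophilic erythroblasts Eif2ak2 differed by -0.77 (SE 0.21), with an adjusted p of 0.354 without and 0.0341 with the block within each stage.

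The target of these kinases is eIF2, and eIF2B is the exchange factor that reloads it. Eif2s1, the gene of the alpha subunit that the kinases phosphorylate, was listed but not matched, so it was not tested. None of the 7 tested subunits passed between diets in either stage (limma), and 1 in proerythroblasts and 0 in basophilic erythroblasts had an unadjusted p under 0.05. Of all 20134 genes tested, 2813 and 1305 did. With the block within each stage Eif2b4 (-0.52, adjusted p = 0.0225) and Eif2b5 (-0.48, adjusted p = 0.0272) passed in proerythroblasts, as did 11.1% of all genes, with 2 members (Ppp1r15a and Eif2ak1) past the threshold as before. Between stages 6 of the 7 fell on each diet, while 25.5% of all genes fell on the adequate and 24.9% on the deficient diet. On the adequate diet Eif2b1 fell by 2.34 (SE 0.25, adjusted p = 2.83e-05), Eif2b3 fell by 2.12 (SE 0.24, adjusted p = 4.37e-05) and Eif2b5, the catalytic subunit, by 1.79 (SE 0.23, adjusted p = 0.000119). On the deficient diet Eif2b3 fell by 1.92 (adjusted p = 0.000372) and Eif2b1 fell by 1.66 (adjusted p = 0.00101). The median over the list was -1.44 on the adequate and -1.19 on the deficient diet, against 0.12 and 0.08 over all genes.

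Atf4, the main transcription factor of the response, was at 9.51, 9.39 and 9.37 in adequate proerythroblasts, at 9.78, 9.59 and 9.68 in deficient ones, at 10.33, 10.18 and 10.20 in adequate basophilic erythroblasts and at 9.92, 10.35 and 9.73 in deficient ones. Deficient proerythroblasts lay above adequate ones without overlap. In the deficient basophilic group replicates 1 and 3 lay below all adequate basophilic arrays and replicate 2 above them. Atf4 differed between diets by 0.26 (SE 0.15, adjusted p = 0.56) in proerythroblasts and by -0.24 (SE 0.15, adjusted p = 0.944) in basophilic erythroblasts. Between stages it rose by 0.81 (SE 0.15, adjusted p = 0.00163) on the adequate diet. On the deficient diet the stage difference of Atf4 was 0.32 (SE 0.15, adjusted p = 0.0938), and it passed without deficient basophilic replicate 3, the array with the label in conflict (0.45, adjusted p = 0.0259), and after quantile normalization (0.63, adjusted p = 0.0477). Without replicate 2 of both basophilic groups that stage difference was 0.14 (adjusted p = 0.224), and the diet difference of Atf4 in basophilic erythroblasts was -0.44 (adjusted p = 0.0744). The diet effect on Atf4 differed between stages by -0.50 (SE 0.22, adjusted p = 0.504), and by -0.70 (adjusted p = 0.03) without those arrays.

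Ddit3 encodes CHOP, a C/EBP-family factor induced by ATF4 and linked to cell death under lasting stress. Its values were 9.35, 9.03 and 8.94 in adequate and 9.79, 9.38 and 9.51 in deficient proerythroblasts, then 10.75, 10.22 and 10.57 in adequate and 9.63, 10.22 and 9.57 in deficient basophilic erythroblasts. The order of the diets turned between stages, higher on the deficient diet in proerythroblasts and lower in basophilic replicates 1 and 3, while both basophilic replicates 2 were at 10.22. Neither diet difference passed, at 0.45 (SE 0.21, adjusted p = 0.357) and -0.71 (SE 0.21, adjusted p = 0.388). Without replicate 2 of both basophilic groups Ddit3 fell by 1.06 (SE 0.16, adjusted p = 0.0137) in basophilic erythroblasts, and the rise of 0.45 in proerythroblasts passed in that fit (SE 0.13, adjusted p = 0.0479). Between stages Ddit3 rose by 1.41 (SE 0.21, adjusted p = 0.000297) on the adequate diet and differed by 0.25 (SE 0.21, adjusted p = 0.313) on the deficient diet, and by 0.04 (adjusted p = 0.83) there without these arrays. The difference between the stages in diet effect was -1.16 (SE 0.29, adjusted p = 0.141), and -1.51 (adjusted p = 0.0101) without these arrays. A second array feature of Ddit3, not used in the fit, differed by 0.52 in proerythroblasts, -0.68 in basophilic erythroblasts, 1.54 between stages on the adequate diet and 0.34 on the deficient diet.

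Trib3, a pseudokinase induced by ATF4 and CHOP that in turn dampens ATF4, carries the motif match shown after its start. Its arrays read 6.18, 6.23 and 6.22 in adequate and 6.56, 6.56 and 6.55 in deficient proerythroblasts, then 7.87, 7.01 and 7.44 in adequate and 6.98, 7.89 and 6.85 in deficient basophilic erythroblasts. The proerythroblast groups were tight and did not overlap, and the basophilic groups overlapped only through deficient replicate 2, the highest of these arrays. The proerythroblast difference of 0.35 (SE 0.26) did not pass (adjusted p = 0.747) in a fit where the groups share 1 estimate of the spread. Trib3 rose between stages on the adequate diet by 1.23 (SE 0.26, adjusted p = 0.00336) and on the deficient diet by 0.68 (SE 0.26, adjusted p = 0.0426). The second call was kept in 4 of 12 fits that each left out 1 array, those without adequate basophilic replicate 1 or 2 or deficient basophilic replicate 1 or 3 (highest adjusted p 0.144 in the others). Without replicate 2 of both basophilic groups Trib3 fell by 0.74 (SE 0.13, adjusted p = 0.0224) on the deficient diet in basophilic erythroblasts, and its rise between stages on that diet was 0.36 (adjusted p = 0.0249). The diet effect on Trib3 differed between stages by -0.55 (SE 0.37, adjusted p = 0.829), and by -1.09 (adjusted p = 0.0131) in the fit without these arrays.

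Among the 8 tested transcription factors of the response, Nupr1, a small stress-induced chromatin protein, rose by 0.56 (SE 0.12, adjusted p = 0.0271) on the deficient diet in proerythroblasts, and no other passed. This call was kept in 7 of 12 fits that each left out 1 array (highest adjusted p 0.141). Between stages on the adequate diet 6 of the 8 rose and none fell (28.7% and 25.5% of all genes), Nupr1 by 0.67 (SE 0.12, adjusted p = 0.00158) beside Atf4, Ddit3 and Trib3. These last are members described above, and of the 5 factors that are not members 3 rose. On the deficient diet, where 31.1% of all genes rose and 24.9% fell, the 2 that rose were Trib3 and Atf5, a relative of Atf4. Atf5 rose by 0.95 (SE 0.32, adjusted p = 0.0282, kept in 8 of 12 fits without 1 array, highest adjusted p 0.0764). In basophilic erythroblasts none passed between diets (limma), and 2 had an unadjusted p under 0.05, as did 1305 of all 20134 genes tested.

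Asns encodes asparagine synthetase, a standard target of ATF4, and has the motif match nearest before its start among the members with TGATGNAA. It read 10.35, 10.29 and 10.19 in adequate and 9.98, 9.43 and 9.62 in deficient proerythroblasts, then 10.67, 10.49 and 10.81 in adequate and 9.22, 10.51 and 8.97 in deficient basophilic erythroblasts. Asns was lower in all 3 deficient than in all 3 adequate proerythroblast arrays, and lower in deficient basophilic replicates 1 and 3 than in any other basophilic array. The differences were -0.60 (SE 0.32, adjusted p = 0.467) in proerythroblasts and -1.09 (SE 0.32, adjusted p = 0.383) in basophilic erythroblasts. When replicate 2 of both basophilic groups was left out, Asns fell by 0.60 (SE 0.14, adjusted p = 0.0173) in proerythroblasts, where 16.3% of all genes passed in that fit, and fell by 1.65 (SE 0.17, adjusted p = 0.00238) in basophilic erythroblasts. The stage differences were 0.38 (adjusted p = 0.312) on the adequate and -0.11 (adjusted p = 0.774) on the deficient diet, and without these arrays Asns rose by 0.46 (adjusted p = 0.0227) on the first and fell by 0.58 (adjusted p = 0.0105) on the second, in fits where 68.2% and 58.7% of all genes passed. The diet effect on Asns differed between stages by -0.49 (SE 0.45, adjusted p = 0.979), and by -1.04 (adjusted p = 0.0369) without them.

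Chac1, an enzyme that breaks down glutathione and is a late target of the pathway, has the motif match farther upstream. Its values were 6.0, 6.30 and 6.04 in adequate and 6.14, 6.06 and 6.18 in deficient proerythroblasts, then 9.01, 7.33 and 7.81 in adequate and 6.81, 7.89 and 6.75 in deficient basophilic erythroblasts. All basophilic arrays were above all proerythroblast arrays, and replicate 1 of the adequate group was the highest. The diet difference was 0.01 (SE 0.38, adjusted p = 0.998) in proerythroblasts and -0.90 (SE 0.38, adjusted p = 0.715) in basophilic erythroblasts, where it was -1.63 (SE 0.30, adjusted p = 0.0298) without replicate 2 of both groups. Between stages Chac1 rose by 1.94 (SE 0.38, adjusted p = 0.00217), which is 3.83-fold, on the adequate diet and by 1.02 (SE 0.38, adjusted p = 0.0398) on the deficient diet. The second call was lost without deficient basophilic replicate 2 and without any 1 of the 6 proerythroblast arrays (highest adjusted p 0.154), and kept without each of the other 5 arrays. It was also lost without replicate 2 of both basophilic groups, at 0.65 (adjusted p = 0.0663). In that fit the diet effect on Chac1 differed between stages by -1.64 (adjusted p = 0.0557), against -0.91 (SE 0.54, adjusted p = 0.747) with all arrays.

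The wider amino acid list did not move one way. Of 16 tested genes of amino acid synthesis and transport, 2 rose and 1 fell on the deficient diet in proerythroblasts (1.26% and 2.76% of all genes). With the block within each stage, under which 11.1% of all genes passed, 6 rose and 2 fell, among them Phgdh (-0.49, adjusted p = 0.0208). Slc6a9, the glycine transporter GLYT1 that feeds heme synthesis, rose by 1.70 (SE 0.19, adjusted p = 0.000846), and Aldh18a1, the first enzyme of proline synthesis, fell by 1.20 (SE 0.17, adjusted p = 0.00246). Mthfd2, a mitochondrial folate enzyme, rose by 0.72 (SE 0.17, adjusted p = 0.0392), a call kept in 3 of 12 fits that each left out 1 array (highest adjusted p 0.187). Between stages on the adequate diet 6 of the 16 rose and 4 fell, a share near that of all genes (54.2% passed, 28.7% higher and 25.5% lower). Slc6a9 rose by 1.95 (adjusted p = 1.46e-05) and Slc7a5, a transporter of large neutral amino acids, by 1.71 (adjusted p = 2.9e-05), while Phgdh, the first enzyme of serine synthesis, fell by 1.47 (adjusted p = 1.18e-05) and Aldh18a1 by 1.65 (adjusted p = 2.19e-05). The deficient diet gave 3 that rose and 5 that fell (31.1% and 24.9% of all genes), with Slc7a5 up by 1.04 (adjusted p = 0.00231) and Phgdh down (-1.003, adjusted p = 0.000623).

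None of the 11 tested genes of tRNA charging and export passed between diets in either stage (limma), and 2 in each stage had an unadjusted p under 0.05. Of all 20134 genes tested, 2813 in proerythroblasts and 1305 in basophilic erythroblasts did. Their median difference was -0.30 in proerythroblasts and -0.45 in basophilic erythroblasts. With the block within each stage 3 fell in proerythroblasts, Wars (-0.50, adjusted p = 0.0302), Iars (-0.60, adjusted p = 0.0372) and Eprs (-0.62, adjusted p = 0.0393), synthetases of tryptophan, isoleucine and of glutamate and proline. In that fit 7.05% of all genes fell in proerythroblasts. Gars, glycyl-tRNA synthetase, averaged 9.94 in adequate and 8.89 in deficient basophilic erythroblasts (-1.05, SE 0.28, adjusted p = 0.321), and passed with the block within each stage (adjusted p = 0.00936) and without replicate 2 of both groups (-1.16, adjusted p = 0.00296). Between stages 1 rose and 4 fell on the adequate diet (28.7% and 25.5% of all genes). On the deficient diet 1 rose and 6 fell (31.1% and 24.9% of all genes). Wars, tryptophanyl-tRNA synthetase, fell by 1.61 (SE 0.17, adjusted p = 2.51e-05) on the adequate diet and Gars by 1.32 (SE 0.28, adjusted p = 0.00599) on the deficient diet.

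Sesn2 encodes sestrin, a leucine-binding inhibitor of mTORC1. It read 8.02, 8.13 and 7.77 in adequate and 8.33, 7.78 and 8.11 in deficient proerythroblasts, then 9.62, 8.41 and 8.98 in adequate and 8.64, 8.79 and 8.67 in deficient basophilic erythroblasts. The diets overlapped in both stages, and each basophilic array was above each proerythroblast array. Sesn2 rose between stages by 1.03 (SE 0.26, adjusted p = 0.00807) on the adequate diet, and its stage difference on the deficient diet was 0.63 (SE 0.26, adjusted p = 0.0533), and 1.05 (adjusted p = 0.00831) after quantile normalization. It also passed without replicate 2 of both basophilic groups (0.58, adjusted p = 0.0369). The diet differences were 0.10 (adjusted p = 0.998) in proerythroblasts and -0.30 (adjusted p = 0.954) in basophilic erythroblasts, where it was -0.65 (adjusted p = 0.22) without replicate 2 of both groups. The diet effect on Sesn2 differed between stages by -0.40 (adjusted p = 0.972), and by -0.74 (adjusted p = 0.208) in that fit.

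Ddit4 (REDD1), another inhibitor of mTORC1 induced by stress and hypoxia, read 6.27, 6.29 and 6.58 in adequate and 6.34, 6.86 and 6.77 in deficient proerythroblasts, then 6.84, 6.79 and 6.83 in adequate and 6.82, 7.32 and 7.15 in deficient basophilic erythroblasts. The groups lay close together and those of each stage overlapped between diets. The diet difference was 0.28 (SE 0.17) in each stage, with an adjusted p of 0.599 and 0.927. Ddit4 rose between stages by 0.44 (SE 0.17) on each diet, with an adjusted p of 0.0471 on the adequate and 0.046 on the deficient diet. Without 1 array the adequate call was kept only in the 5 fits without adequate proerythroblast replicate 3, deficient proerythroblast replicate 1 or 2, or deficient basophilic replicate 1 or 2 (highest adjusted p 0.133 in the others). The deficient call was kept only in the 3 fits without adequate proerythroblast replicate 3, deficient proerythroblast replicate 2 or deficient basophilic replicate 1 (highest adjusted p 0.184 in the others). Neither call held with no filter, with the stricter filter or after median centring. Without replicate 2 of both basophilic groups the rise on the deficient diet did not pass (0.33, adjusted p = 0.121), and the diet difference in basophilic erythroblasts was 0.15 (adjusted p = 0.867). The diet effect on Ddit4 differed between stages by 0.00 with all arrays and by -0.13 (adjusted p = 0.87) in that fit.

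Among the 8 tested brakes on mTORC1 and translation, Grb10, an adaptor that restrains growth factor signalling, fell by 1.16 (SE 0.14, adjusted p = 0.00135) on the deficient diet in proerythroblasts, from a mean of 7.17 to 6.01. Its basophilic means were 5.96 and 6.02. Between stages on the adequate diet 2 rose, Sesn2 and Ddit4, and 3 fell (28.7% and 25.5% of all genes), with Grb10 down by 1.21 (-1.21, adjusted p = 6.03e-05). Ddit4 rose on the deficient diet, where no gene of the list fell (31.1% and 24.9% of all genes).

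Ppp1r15a encodes GADD34, the stress-induced subunit that directs protein phosphatase to eIF2, and has the cyclic AMP response element shown before its start. Its values were 9.46, 9.11 and 8.95 in adequate and 10.66, 10.65 and 10.66 in deficient proerythroblasts, then 11.75, 11.35 and 11.81 in adequate and 11.67, 11.59 and 11.68 in deficient basophilic erythroblasts. The 3 deficient proerythroblast arrays agreed within 0.01 and lay between the adequate proerythroblast and the basophilic arrays, with no overlap. Between stages Ppp1r15a rose by 2.46 (SE 0.16, adjusted p = 1.23e-06), which is 5.52-fold, on the adequate diet and by 0.99 (SE 0.16, adjusted p = 0.00139) on the deficient diet. In basophilic erythroblasts the diets differed by 0.01 (SE 0.16, adjusted p = 0.994). The diet effect differed between stages by -1.47 (SE 0.22, adjusted p = 0.0305), and Ppp1r15a was the only member past the threshold in that comparison, where 0.303% of all genes passed. The call was kept in 4 of 12 fits that each left out 1 array, those without adequate proerythroblast replicate 1, adequate basophilic replicate 2 or deficient basophilic replicate 2 or 3 (highest adjusted p 0.122 in the others), and with the block within each stage (adjusted p = 0.0114).

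Ppp1r15b encodes CReP, the constitutive counterpart of GADD34. It read 9.93, 9.72 and 9.68 in adequate and 9.99, 9.94 and 9.79 in deficient proerythroblasts, then 10.19, 9.38 and 9.96 in adequate and 9.56, 8.83 and 9.49 in deficient basophilic erythroblasts. The deficient basophilic array was lower than the adequate one of the same number in all 3 pairs, and replicate 2 was the lowest on each diet. The difference of -0.55 (SE 0.23) had an adjusted p of 0.702, and of 0.0375 with the replicate number as a block within each stage, where 1.48% of all genes passed. In proerythroblasts it was 0.13 (SE 0.23, adjusted p = 0.998). Between stages Ppp1r15b differed by 0.07 (SE 0.23, adjusted p = 0.808) on the adequate diet and fell by 0.61 (SE 0.23, adjusted p = 0.0385) on the deficient diet. That call was lost without adequate proerythroblast replicate 2, adequate basophilic replicate 3, deficient basophilic replicate 2 or any 1 of the 3 deficient proerythroblast arrays (highest adjusted p 0.132). In the fit that left out replicate 2 of both basophilic groups Ppp1r15b rose between stages on the adequate diet by 0.30 (adjusted p = 0.0349) and fell by 0.38 (adjusted p = 0.0151) on the deficient diet. The diet effect differed between stages by -0.68 (SE 0.32, adjusted p = 0.574), and the adjusted p was 0.0415 with the block and 0.0482 without those arrays.

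The catalytic subunits that these regulators hold moved apart between stages. Ppp1cb rose by 1.82 (SE 0.21, adjusted p = 5.41e-05) on the adequate and by 1.3 (SE 0.21, adjusted p = 0.00157) on the deficient diet. Ppp1ca fell by 1.26 (SE 0.43, adjusted p = 0.0303, kept in 9 of 12 fits without 1 array, highest adjusted p 0.126) and by 1.22 (SE 0.43, adjusted p = 0.0327, kept in 8 of 12, highest 0.113). Of the 5 tested phosphatase genes only Ppp1r15a passed between diets in proerythroblasts, where 4.02% of all genes passed.

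**Figure D2:**
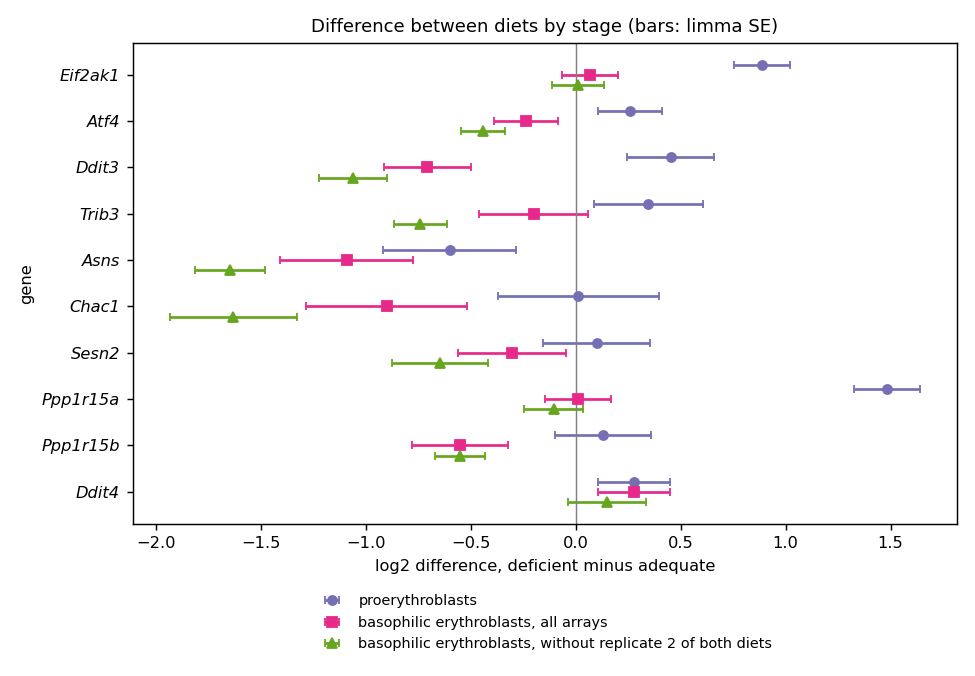
Log2 difference between diets (horizontal axis, deficient minus adequate) of each member in proerythroblasts (circles), in basophilic erythroblasts with all arrays (squares) and with replicate 2 of both diets left out (triangles), with bars for the standard error of the limma fit. Ppp1r15a and Eif2ak1 stand apart to the right at 1.48 and 0.89 in proerythroblasts, and Asns and Chac1 reach -1.65 and -1.63 without replicate 2.

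The comparison of the diet effects between stages had a negative value for 9 of the 10 members, and 0.00 for Ddit4. The median was -0.61 over the members and 0.03 over all genes. Markers moved in the same comparison, with 3 of 5 tested progenitor markers higher and none lower (median 1.46) and 2 of 10 erythroid markers lower and none higher (median -0.63), and their part in the members' values was not tested. The members' own values in both stages are those given above, since the comparison is made of them. With the block within each stage, which takes same-numbered arrays of the diets as pairs, 3 members passed (Ppp1r15a, Eif2ak1 and Ppp1r15b) and 2.93% of all genes. Without replicate 2 of both basophilic groups 7 passed, all lower, and 3.48% of all genes (1.47% lower).

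Between stages on the adequate diet 8 of the 10 members rose, with Asns and Ppp1r15b not past the threshold, where 54.2% of all genes passed and 28.7% rose. All 10 rose when replicate 2 of both basophilic groups was left out, where 68.2% of all genes passed and 38.9% rose. With all arrays the order by size was Ppp1r15a, Chac1, Eif2ak1, Ddit3, Trib3, Sesn2, Atf4 and Ddit4, from 2.46 to 0.44. On the deficient diet 5 rose (Eif2ak1, Ppp1r15a, Chac1, Trib3 and Ddit4) and Ppp1r15b fell, where 56% of all genes passed, 31.1% up and 24.9% down. The arrays of the stages did not overlap for 9 members on the adequate and 6 on the deficient diet, against 73.9% and 66.5% of all genes. The median was 1.13 over the members on the adequate and 0.53 on the deficient diet, and 0.12 and 0.08 over all genes. Centring each array on its median moved the median of all genes to -0.11 and -0.15, and on the deficient diet it left 2 members higher (Eif2ak1 and Ppp1r15a) and Ppp1r15b lower, while quantile normalization gave 6 higher and 0 lower. In a fit of the deficient diet's own arrays Eif2ak1 and Ppp1r15a were the 2 members that passed. Over all genes the split on the adequate diet was 5773 higher and 5143 lower as deposited, 2813 and 3656 after quantile normalization and 2069 and 6170 after centring, and on the deficient diet 6264 and 5012, 3860 and 3377, and 2831 and 6321. For the diet in proerythroblasts it was 254 and 556, 269 and 379, and 185 and 652. Progenitor markers were lower at the later stage (4 of 5 tested on the adequate diet, median -2.76, and 3 of 5 on the deficient diet, median -0.62). Erythroid markers were higher (7 of 10 on the adequate and 3 of 10 on the deficient diet), and neutrophil markers lower (7 of 10, with 1 higher, on the adequate and 6 of 10 on the deficient diet). Their part in the members' change was not tested.

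**Figure D3:**
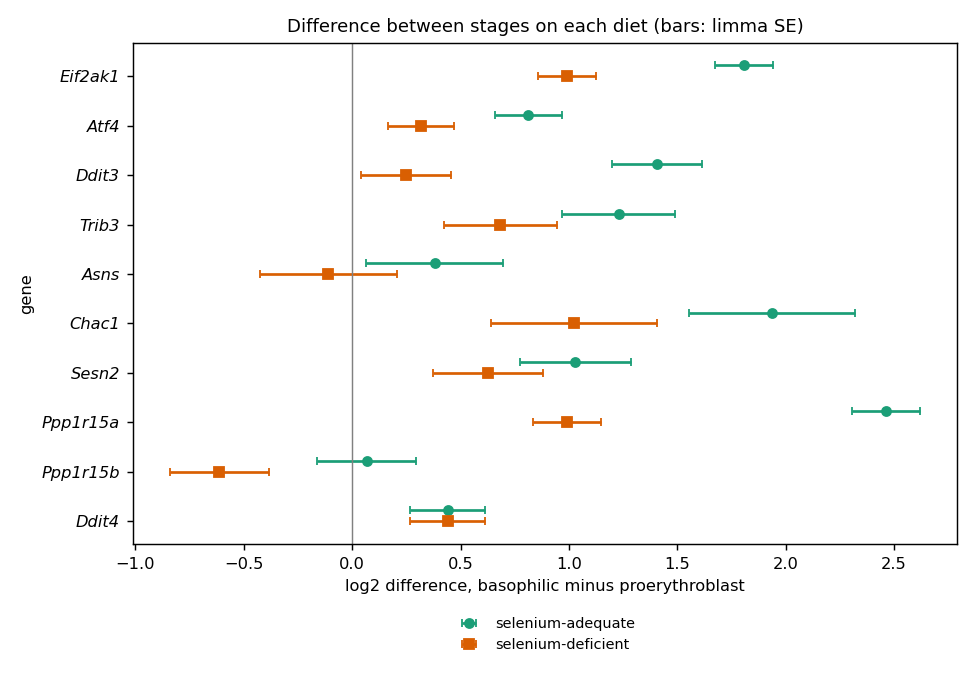
Log2 difference between stages (horizontal axis, basophilic minus proerythroblast) of each member on the adequate diet (circles) and the deficient diet (squares), with bars for the standard error of the limma fit. The circle lies to the right of the square for every member but Ddit4, where both are at 0.44, and the widest gap is that of Ppp1r15a, at 2.46 and 0.99.

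The stress outputs downstream of ATF4 and CHOP moved both ways between stages. Of 9 tested genes none passed between diets (limma), with 1 in proerythroblasts and 2 in basophilic erythroblasts at an unadjusted p under 0.05. Of all 20134 genes tested, 2813 and 1305 were under it. Herpud1, a component of degradation at the endoplasmic reticulum, averaged 9.58 in adequate and 8.80 in deficient basophilic erythroblasts (-0.78, SE 0.27, adjusted p = 0.525), and passed with the block within each stage (adjusted p = 0.0401), as did Bcl2l11 (BIM), a promoter of cell death, in proerythroblasts (-0.62, adjusted p = 0.0109). Between stages on the adequate diet 4 of the 9 rose and 2 fell, near the share of all genes (54.2% passed, 28.7% higher and 25.5% lower). Bbc3 (PUMA), which also promotes cell death, rose by 0.75 (SE 0.15, adjusted p = 0.00194), while Bcl2l11 fell by 0.90 (SE 0.16, adjusted p = 0.00095) and Ero1a, an oxidase of the endoplasmic reticulum, fell by 1.74 (SE 0.31, adjusted p = 0.000997). On the deficient diet 4 rose and 2 fell (31.1% and 24.9% of all genes), with Bbc3 up by 0.66 (adjusted p = 0.00745) and Ero1a down by 1.70 (-1.70, adjusted p = 0.00262).

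The XBP1 and ATF6 branch answers unfolded proteins in the endoplasmic reticulum without HRI. Of its 14 tested genes 1 passed between diets in proerythroblasts, Pdia6, a disulfide isomerase, which fell by 0.82 (SE 0.14, adjusted p = 0.00762). In that comparison 4.02% of all genes passed, 2.76% of the genes tested lower. With the block within each stage 1 rose and 4 fell in these cells (4.04% and 7.05% of all genes), among the 4 the chaperones Hsp90b1 (-0.79, adjusted p = 0.0219) and Hyou1 (-0.43, adjusted p = 0.0328). None passed in basophilic erythroblasts (limma, 1 at an unadjusted p under 0.05, as were 1305 of all 20134 genes tested). Xbp1 averaged 8.65 on the adequate and 9.57 on the deficient diet there (0.92, SE 0.21, adjusted p = 0.229). It passed with the block within each stage (adjusted p = 0.0232), as did its upstream sensor Ern1 (0.55, adjusted p = 0.0398). Between stages 6 fell and none rose on the adequate diet (25.5% and 28.7% of all genes). On the deficient diet 5 fell and Xbp1 rose (24.9% and 31.1% of all genes). Pdia6 fell by 1.44 (SE 0.14, adjusted p = 1.73e-05) on the adequate and the chaperone Canx by 0.96 (SE 0.22, adjusted p = 0.008) on the deficient diet.

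**Figure D4:**
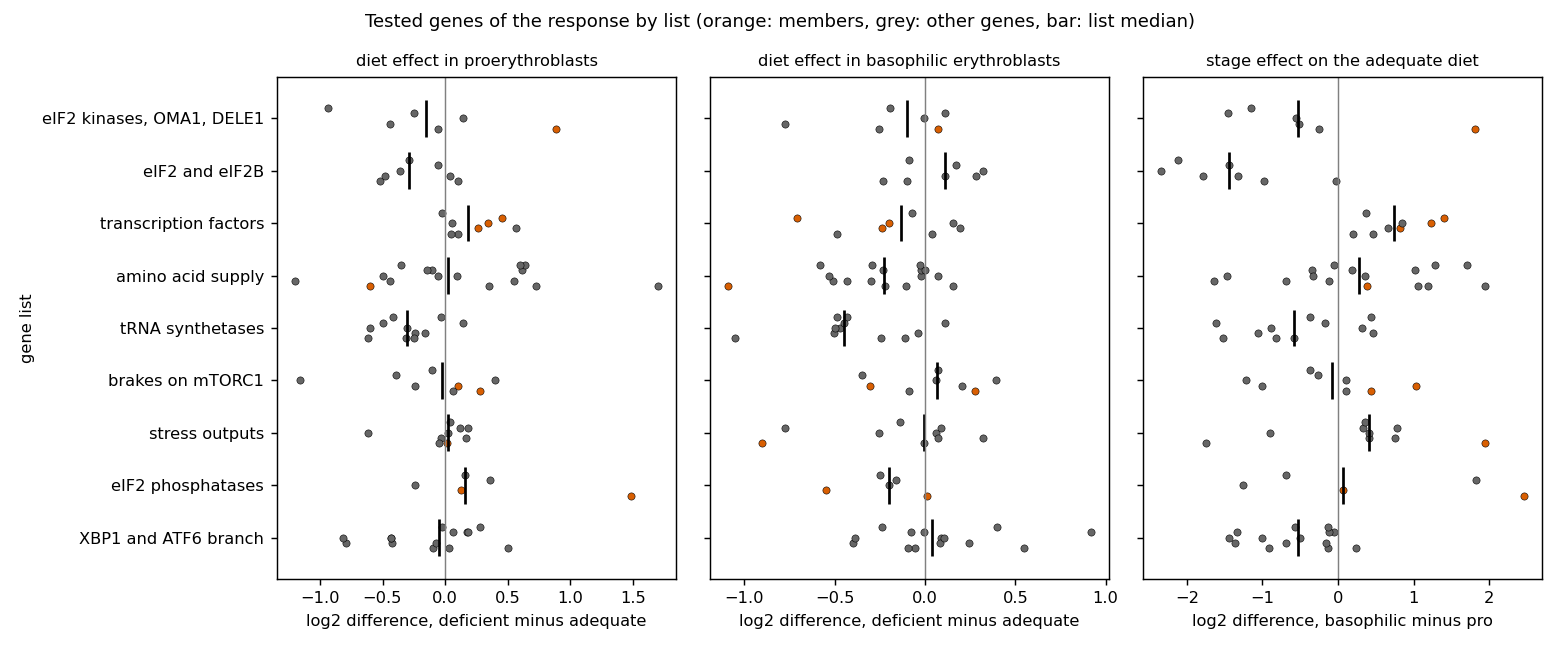
Log2 difference (horizontal axes) of each tested gene of the 9 lists (rows) for the diet in proerythroblasts, the diet in basophilic erythroblasts and the stage on the adequate diet, with members in orange, other genes in grey and a bar at the list median. In the stage panel the subunits of eIF2 and eIF2B have a median of -1.44 and the transcription factors one of 0.74.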

How the data were processed

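Expression was measured on 12 Affymetrix whole-transcript arrays from 5 ng of total RNA each. The authors deposited log2 values made with Affymetrix Expression Console, per the submitters' processing notes, with background correction, summarisation, normalization and version not given in the sources used here; the log2 scale is read from the range of the deposited values. Groups were taken from the titles. Of 72688 features, 31216 named 1 gene, 1534 several and 39752 none, and 186 were controls. For the 364 genes with several features that with the highest mean was used. Genes whose value exceeded 5.30 (the overall median) in 3 or more arrays were fitted with limma 3.58.1 in R 4.3.3 (a mean per group, eBayes, Benjamini-Hochberg, threshold 0.05), and tables were made with python 3.11.15. The method was first run on simulated data with independent noise of the same spread in every array. That run did not cover arrays that deviate together or an array with more noise, both of which occur here. Names of 1439 symbols were updated through RefSeq.

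The members and gene lists were chosen with earlier results of these data known. Of the lists, the text names up to 4 genes with the smallest adjusted p in each comparison. Of 93 listed pathway genes 87 were matched by symbol or synonym.

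Same-numbered arrays of the diets deviated together within each stage (correlations of their deviations from the group means of 0.458, 0.180 and 0.523 in proerythroblasts and 0.717, 0.782 and 0.540 in basophilic erythroblasts). The block within each stage therefore took them as pairs for the diet comparisons, as a reading of the data and not of a label. Replicate 2 of both basophilic groups also shared a higher background (4.19 and 4.70), so deviating together need not mean a pair. The pairing was read from the same arrays that were then tested with it, so its p-values between diets can be too small. The alternatives were the filter, normalization, array weights, replicate blocks, averaging features per gene, the contrast's own arrays, and leaving out arrays.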

Additional observations from a re-analysis of the deposited data

Results flagged for a closer look

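In 3 genes of the members and lists the diet effect differed between the stages past the threshold (limma, n = 3 per group). Of all 20134 genes tested, 61 passed. Ppp1r15a differed by -1.47 (adjusted p = 0.0305), with means of 9.17 and 10.66 on the adequate and deficient diet in proerythroblasts and 11.64 and 11.65 in basophilic erythroblasts. Slc6a9 differed by -1.55 (SE 0.26, adjusted p = 0.0433), with means of 9.09 and 10.80, then 11.04 and 11.20. Grb10 differed by 1.22 (SE 0.20, adjusted p = 0.0374), with means of 7.17 and 6.01, then 5.96 and 6.02. In the fits that each left out 1 of the 12 arrays these calls were kept 4, 2 and 3 times, with highest adjusted p-values of 0.122, 0.156 and 0.151. With the replicate block within each stage the adjusted p-values were 0.0114, 0.00574 and 0.0136. The causes were not tested.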

How the results depend on the processing

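Of 17 calls of members, 11 were kept under every alternative run, and the other 6 were Trib3, Chac1, Ppp1r15b and Ddit4 between stages on the deficient diet, Ddit4 on the adequate diet and the interaction of Ppp1r15a. The number of members past the threshold for the diet in proerythroblasts was 2, and it was 7 with array weights, 4 when replicate 2 of both basophilic groups was left out and 4 in a fit of the contrast's own arrays. For the diet in basophilic erythroblasts it was 0, and 6, 4 and 0 in these fits, and leaving out 1 array gave 0 to 2, with 2 (Ddit3 and Asns) without deficient basophilic replicate 2. For the stage on the deficient diet it was 6, with 3 after median centring, 2 in the contrast's own arrays and 2 to 6 without 1 array. For the interaction it was 1, with 8 with array weights, 7 when replicate 2 of both basophilic groups was left out, and 0 to 2 without 1 array. Of the 20134 genes tested, 810 passed for the diet in proerythroblasts, and 4632, 3282 and 2414 in these fits in the order above. For the diet in basophilic erythroblasts 4 passed, then 2131, 423 and 0, and 292 without deficient basophilic replicate 2. For the stage on the deficient diet 11276 passed, 9152 after median centring and 2930 in the contrast's own arrays. For the interaction 61 passed, 2911 with array weights and 700 without replicate 2 of both basophilic groups.

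The replicate number as a block within each stage gave 1 member for the diet in basophilic erythroblasts and 3 for the interaction, and Sesn2 as a further call between stages on the deficient diet (adjusted p = 0.0345). Between stages no arrays are paired, and this block takes the spread between replicates out of the error. Its p-values there can be too small, and 14601 of all genes passed on the deficient diet in place of 11276. Over all genes this block gave 2233 in place of 810 for the diet in proerythroblasts, 297 in place of 4 in basophilic erythroblasts and 589 in place of 61 for the interaction. The replicate number as a block over all arrays gave 1104, 19 and 64. It changed no member's call between diets, and same-numbered arrays of different stages did not all deviate together.

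Directions turned for differences that did not pass. Eif2ak1 between diets in basophilic erythroblasts was -0.039 with array weights and -0.012 to 0.133 without 1 array. Ppp1r15a there was -0.03 after median centring, -0.115 with array weights, -0.105 without replicate 2 of both groups and -0.133 to 0.097 without 1 array. Trib3 there ran from -0.525 to 0.015 and Sesn2 from -0.60 to 0.005 without 1 array. Between diets in proerythroblasts Chac1 was -0.007 after quantile normalization, -0.023 after median centring and -0.043 to 0.107 without 1 array, and Sesn2 ran from -0.028 to 0.247. Between stages Asns on the deficient diet was 0.21 after quantile normalization and -0.58 to 0.19 without 1 array, and Ppp1r15b on the adequate diet was -0.16 after median centring and -0.11 to 0.30 without 1 array. The causes were not tested.

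Over all genes the counts also moved. With array weights they were 4632, 2131 and 2911 for the diet in proerythroblasts, in basophilic erythroblasts and for the interaction, and without replicate 2 of both basophilic groups 3282, 423 and 700. The contrast's own arrays gave 2414 and 0 for the diet in the stages and 2930 for the stage on the deficient diet. Quantile normalization gave 56 for the diet in basophilic erythroblasts, 6469 and 7237 for the stage on the adequate and deficient diet and 24 for the interaction. Median centring gave 1 for the diet in basophilic erythroblasts, no filter gave 38 for the interaction, and the stricter filter (values above 6.62) gave 6701 and 6358 for the stage on the adequate and deficient diet, with fewer genes tested. Without 1 array the counts were 315 to 1807, 0 to 292, 5618 to 14342, 4954 to 12419 and 12 to 282 for the diet in proerythroblasts, in basophilic erythroblasts, the stage on the adequate and on the deficient diet and the interaction. Another background correction was not run, because summarised values were used. All 10 members lay above 5.30 in every array, so signal over background did not remove any.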

Other observations

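Likeness by Pearson r was taken over the 12 arrays, which share stage and diet as common sources of variation. Predicted or unnamed genes (Gm, Rik and LOC symbols) were left out of the genes listed as most alike. For Atf4 these were Wasf2 (0.967), Ddit3 (0.954), Mkln1os (0.954), Zpbp2 (0.952) and Trib3 (0.952). Among all tested genes Ddit3 ranked 4 and Trib3 ranked 7. The listed genes most like Eif2ak1 were Urod (0.995), an enzyme of heme synthesis, Mxd1 (0.993), Ranbp10 (0.992), Usp32 (0.992) and Galnt10 (0.990). Among the members, Ppp1r15a had an r of 0.986 with Eif2ak1, while Asns had an r of 0.413 and Ppp1r15b one of -0.265 with Atf4. These are descriptions with no test.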
